A study of Mus musculus with 20 samples.

Results

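Young medium spiny neurons (yMSN) were set against striatal precursors (SP), the only 2 striatal stages before the mature one in the RNA data, by taking the RNA sequencing libraries with those titles. They are 2 of the 20 samples of a mouse study of DNA methylation and gene expression across neural lineages, of which 6 are RNA libraries. The other RNA libraries are hippocampal precursors (HP, 1 library), young hippocampal CA pyramidal neurons (yCA, 1 library) and mature dorsal medium spiny neurons (dMSN, 2 libraries), and they serve here only as points of reference. The 14 bisulfite samples were not analysed here. Every RNA library is labelled as male, C57BL/6 and WT, with no treatment named, and came from brain tissue that was frozen, cut on a cryostat and microdissected, not from sorted cells. Ages and numbers of animals are not given in the labels of these 6 libraries, and the labels write the neurons as Medial Spiny Neurons.

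Medium spiny neurons are the GABA-releasing projection cells that make up most of the striatum. They arise from dividing progenitors of the lateral ganglionic eminence in the ventral forebrain, where Dlx and Gsx transcription factors set a GABAergic fate and factors such as Bcl11b complete it. Their mature signature is dopamine reception and cyclic AMP signalling through the receptors Drd1a and Drd2 and the phosphatase inhibitor DARPP-32, encoded by Ppp1r1b.

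SP held 35874646 counts in genes and yMSN 36969136, within the 31282185 to 152347673 of the 6 libraries. Levels are CPM, read counts scaled to library size, and a difference is the log2 ratio of yMSN over SP, so that 1 is 2-fold. With 1 library per stage there is no replicate error and no test. The 95% interval beside a ratio is an exact binomial one that covers counting error only. A gene is called higher or lower when the ratio is at least 2-fold and the higher library has at least 5 CPM. A count of 0 allows up to 0.0755 CPM in SP and 0.0691 CPM in yMSN. Levels are not corrected for transcript length, so they are compared between libraries and not between genes.

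The 4 marker genes differed in the direction the labels imply. Gad1, which makes GABA, was at 8.48 CPM in SP and 95.8 CPM in yMSN, with 4.85 in HP, 117 in yCA and 504 and 570 in dMSN (log2 ratio 3.49, interval 3.34 to 3.66). Ppp1r1b was at 0.780 and 19.1 CPM, with 0.201 in HP, 26.1 in yCA and 2575 and 2473 in dMSN (4.53, 4.10 to 5.18). Meis2, a striatal and pallial transcription factor, was at 158 and 326 CPM, with 109 in HP, 395 in yCA and 213 and 251 in dMSN (1.05, 1.01 to 1.09). Top2a, the DNA topoisomerase of dividing cells, was at 1064 and 272 CPM, with 1041 in HP, 239 in yCA and 2.60 and 2.58 in dMSN (-1.97, -2.0 to -1.94). The 3 neuronal markers were thus higher in yMSN than in SP, and all 3 were also lower in yMSN than in yCA. The Meis2 call was lost under 3 other scalings. Top2a in yMSN stood between SP and dMSN.

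Other genes went against the labels. The library labelled SP had 17 counts in 5 Y-linked genes, all in Uty, and 0 in Ddx3y, Eif2s3y and Kdm5d, against 2410 in yMSN. Xist, the RNA of the inactive X chromosome, was at 1088 CPM in SP, 489 CPM in yMSN and at most 0.0333 CPM in dMSN, although every library is labelled male. SP also carried hindbrain transcripts, and yMSN carried olfactory, bone, skin and muscle transcripts that are described below. As each stage is a single library, no result can be given without it. In such bulk RNA, more cells of a type and more RNA per cell cannot be told apart.

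Of 34620 gene symbols, 12931 reached 5 CPM in SP or yMSN. Among them 2687 (20.8%) were called higher in yMSN, 1231 (9.52%) were called lower and 9013 lay within 2-fold. The median log2 ratio over all of these genes was 0.01, and the 5th and 95th percentiles were -1.36 and 3.31. The upper tail was the longer one, with 1406 genes at least 4-fold higher against 229 at least 4-fold lower, and 449 against 54 at 16-fold. The whole interval lay past 2-fold for 2407 of the higher genes and 1006 of the lower ones. A gene that reached 5 CPM in 1 library only could be called in 1 direction only, which holds for 1470 of the higher genes (under 5 CPM in SP) and 209 of the lower ones (under 5 CPM in yMSN). Counts and medians of lists describe the members with 5 CPM in either library. Higher genes made up 68.6% of all calls, and 58.0% under RLE scaling of the libraries, where the median of all ratios shifted by -0.18. It shifted by -0.10 when yMSN and SP were scaled alone, and by -0.11 when all symbols entered the scaling.

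**Figure D1:**
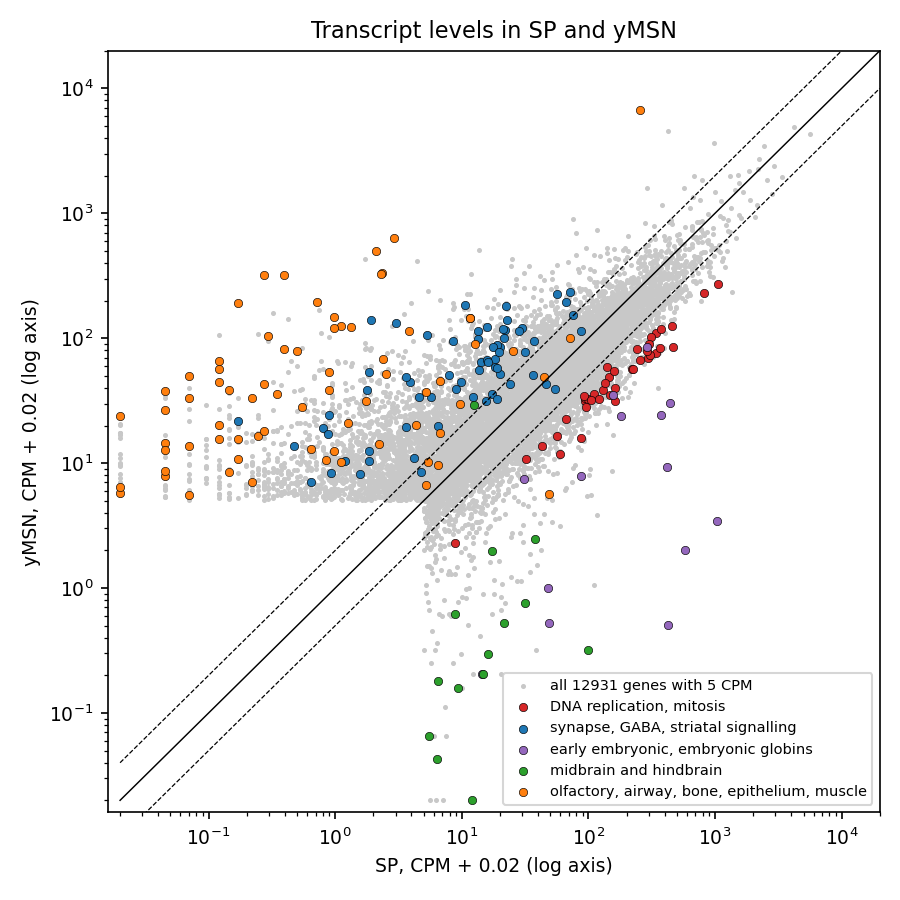
Each point is a gene with at least 5 CPM in SP or yMSN, placed by its level in SP (horizontal) and in yMSN (vertical) on log axes with 0.02 CPM added, and the dashed lines mark 2-fold. DNA replication and mitosis genes (40) lie together below the lower line, most synaptic and GABA genes above the upper one, genes from outside the brain spread to the upper left, and hindbrain genes and embryonic globins lie at the lower right.

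The genes of cell division were lower in yMSN as a block. All 20 DNA replication genes were called lower, with a median log2 ratio of -1.77 against 0.01 over all genes, and so were all 20 mitosis genes, with a median of -1.80. Mcm10, which starts the replication fork, was at 87.4 CPM in SP and 15.9 CPM in yMSN (-2.45). Rrm2, a subunit of the enzyme that makes deoxynucleotides, was at 464 and 85.6 CPM (-2.44). Bub1, a kinase of the spindle checkpoint, was at 161 and 31.1 CPM (-2.37). The spread inside both lists was narrow, from -2.45 to -1.49 for replication and from -2.37 to -1.27 for mitosis. Dividing-cell RNA was still present in yMSN. The mitosis genes summed to 4957 CPM in SP, 1372 CPM in yMSN and 36.7 and 39.1 CPM in dMSN.

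Cell division genes are known to share promoter letters. Genes of the G2 and M phases often carry a CHR element beside CCAAT boxes, and genes of DNA synthesis carry E2F sites. The promoters were read from RefSeq (GRCm38.p6, 250 bases before to 50 after the start), a newer build than that of the counts, and searched on both strands for TTTGAA (CHR), CCAAT and TTTNNCGC (E2F), counting matches also where they overlap another motif. Shares are of genes, and a gene counts if any of its promoters matches. Of the 17 mitosis genes with a promoter there, 12 (70.6%) held both the CHR and CCAAT letters in the same promoter. The share was 7.97% of all 27025 genes and 5.69% of the 10171 genes with 5 CPM. Of 16 replication genes, 9 (56.25%) held the E2F letters, against 9.90% of genes with 5 CPM, and 1 of the 17 mitosis genes did. Of 961 genes called lower and having a promoter there, 13.7% held CHR and CCAAT. Of 1990 such genes called higher, 4.67% did. A match is only these letters in this window. The promoters below are those of the 3 mitosis genes with the lowest ratios whose promoter holds both, after leaving out genes of 1 chromosome. They print the shared letters of the group that was lower as a block. Capitals mark the CHR and CCAAT letters, read on either strand, and positions count from the transcript start.
Cenpf promoter (chr1:189688037-189688336, minus strand): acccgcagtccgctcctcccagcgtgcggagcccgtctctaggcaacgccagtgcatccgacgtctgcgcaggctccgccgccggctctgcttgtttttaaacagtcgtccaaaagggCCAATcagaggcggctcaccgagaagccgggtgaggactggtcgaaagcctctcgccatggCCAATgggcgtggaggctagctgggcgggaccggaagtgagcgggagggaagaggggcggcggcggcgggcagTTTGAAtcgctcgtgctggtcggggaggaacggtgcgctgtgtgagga
Bub1b promoter (chr2:118597961-118598260, plus strand): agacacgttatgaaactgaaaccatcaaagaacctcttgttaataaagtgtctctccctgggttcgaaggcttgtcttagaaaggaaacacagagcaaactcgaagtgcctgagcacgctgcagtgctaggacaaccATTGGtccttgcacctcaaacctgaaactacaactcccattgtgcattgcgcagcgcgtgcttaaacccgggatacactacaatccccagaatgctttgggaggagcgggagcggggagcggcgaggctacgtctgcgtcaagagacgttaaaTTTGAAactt
Top2a promoter (chr11:99024140-99024439, minus strand): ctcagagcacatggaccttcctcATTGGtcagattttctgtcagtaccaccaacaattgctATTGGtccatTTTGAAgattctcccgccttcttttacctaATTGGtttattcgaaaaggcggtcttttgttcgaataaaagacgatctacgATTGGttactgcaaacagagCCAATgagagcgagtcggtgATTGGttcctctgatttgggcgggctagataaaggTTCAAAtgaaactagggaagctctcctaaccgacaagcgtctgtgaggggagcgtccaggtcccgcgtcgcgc
Cenpf, a kinetochore protein, was at 364 CPM in SP and 82.9 CPM in yMSN (-2.13), and its CHR letters start at 3 with CCAAT letters at -132 and -71. Bub1b, a spindle checkpoint kinase, was at 223 and 56.6 CPM (-1.98), with CHR letters at 41 and CCAAT letters at -113. The Top2a promoter holds 2 CHR matches, at -179 and -23, and 6 CCAAT matches between -227 and -58.

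Early embryonic regulators had the lowest median of the 14 lists of brain neurons and progenitors. All 11 members with 5 CPM were called lower, with a median of -3.87. Lin28a, which blocks maturation of the let-7 microRNAs, was at 48.9 CPM in SP and 0.506 CPM in yMSN (-6.46, -7.27 to -5.99). Trim71, a let-7 target that keeps cells undifferentiated, was at 14.4 and 0.184 CPM (-5.96). Hmga2, a chromatin protein of early neural stem cells, was at 378 and 24.3 CPM (-3.96), and Igf2bp1, an RNA-binding protein of embryonic tissue, at 442 and 30.1 CPM (-3.87). Igf2bp2 had the smallest difference of the 11 (293 and 85.2 CPM, -1.78). Dppa4 had 0 counts in both libraries.

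Radial glia and neural stem cell genes split. Of 15, 8 were called lower, 2 higher and 5 lay within 2-fold (median -1.06). Nes, the intermediate filament nestin of neural progenitors, was at 1352 CPM in SP and 233 CPM in yMSN (-2.54). Sox3, a progenitor transcription factor, was at 74.4 and 7.0 CPM (-3.40), and Hes5, a Notch target, at 56.9 and 8.38 CPM (-2.75). Tnc, an extracellular matrix protein of late radial glia, went the other way, with 10.9 and 226 CPM (4.37), and so did the glutamate transporter Slc1a3, with 38.2 and 146 CPM (1.93). Fabp7, a lipid carrier of radial glia, was at 212 and 285 CPM (0.43).

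Transcription factors of the ventral forebrain differed by member. Of 10 subpallial progenitor factors with 5 CPM, 4 were called higher and 4 lower (median 0.45). Lhx6, of migrating medial eminence neurons, was at 5.19 CPM in SP and 63.7 CPM in yMSN (3.61), Dlx1 at 28.6 and 179 CPM (2.65) and Dlx2 at 16.8 and 63.6 CPM (1.92). The lower factors included Gsx1 (7.75 and 1.27 CPM, -2.57), Otx2 (112 and 30.5 CPM, -1.88) and Nkx2-1 (37.1 and 17.9 CPM, -1.05). Gsx2, the progenitor factor of the lateral eminence, was low in both, with 2.59 and 3.59 CPM. SP was not the richer precursor in several of these genes: Dlx1 (35.4 CPM), Dlx2 (28.6 CPM), Lhx6 (23.4 CPM) and Gsx2 (4.08 CPM) were all higher in HP.

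Striatal neuron factors were higher for 6 of 15 and lower for none, with a median of 0.50. This depended on the scaling. Foxp4 (190 CPM in SP and 102 CPM in yMSN, -0.90) was called lower under the 3 scalings in which the Meis2 call was lost. Rxrg, a retinoid receptor of striatal neurons, was at 1.71 CPM in SP and 24.1 CPM in yMSN (3.78). Bcl11b, needed for medium spiny neuron differentiation, was at 27.0 and 296 CPM (3.45), above its 108 and 122 CPM in dMSN. Dlx6 (2.79 and 29.1 CPM, 3.36), Dlx5 (4.43 and 38.7 CPM, 3.11), Sp9 (9.82 and 26.3 CPM, 1.42) and Meis2 were the other 4. The remaining 9 were within 2-fold, among them Foxp2 (77.8 and 70.5 CPM, -0.14), Zfp503 (48.3 and 40.9 CPM, -0.24) and Rarb (19.7 and 37.4 CPM, 0.93). These 3 are factors of striatal neurons that did not reach 2-fold between the stages. The rises were not particular to the striatal pair. Of the 6 higher genes, Bcl11b (361 CPM), Meis2 (395 CPM), Rxrg (32.9 CPM) and Sp9 (38.6 CPM) were higher in yCA than in yMSN. Dlx5 (26.9 CPM) and Dlx6 (16.9 CPM) were lower in yCA than in yMSN. The list summed to 770 CPM in SP, 1292 CPM in yMSN, 779 CPM in HP and 1421 CPM in yCA. Its median log2 ratio of yCA over HP was 0.63.

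Signalling genes of the medium spiny neuron were higher in 15 of 17 with 5 CPM and lower in none, with a median of 2.16, and 8 of the 15 reached 5 CPM in yMSN only. Arpp21, a cyclic AMP-regulated phosphoprotein, was at 1.76 CPM in SP and 38.4 CPM in yMSN (4.41), and Tac1, the precursor of substance P, at 0.856 and 17.0 CPM (4.24). The D1 receptor Drd1a was at 0.629 and 7.09 CPM (3.40, 2.90 to 4.14) and the D2 receptor Drd2 at 1.81 and 10.4 CPM (2.49, 2.16 to 2.90). Transcripts of both output pathways were therefore present at low levels. Pde1b, a striatal phosphodiesterase, did not differ by 2-fold (45.8 and 43.3 CPM, -0.08). The whole list summed to 160 CPM in SP and 756 CPM in yMSN. The same sum was 106.5 CPM in HP, 1182 CPM in yCA and 10738 and 10599 CPM in dMSN. In yMSN the striatal signalling genes thus stood above SP, below yCA and far below dMSN. The list shares Actn2 (1.91 and 140 CPM, 6.16) with sarcomeres and Gnal (11.7 and 145 CPM, 3.63) with olfactory neurons. Skeletal muscle genes, 20 of 21 of them higher, summed to 79.0 CPM in SP and 2791 CPM in yMSN, and olfactory neuron genes to 144 and 491 CPM. Their part in the levels of Actn2 and Gnal was not tested.

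GABA genes followed the signalling genes, with 11 of 13 higher and none lower (median 2.41). Slc32a1, which loads GABA into vesicles, was at 5.66 CPM in SP and 33.9 CPM in yMSN (2.57). The receptor subunit Gabra2 was higher too, at 0.906 and 8.31 CPM (3.13). The 2 members within 2-fold were the chloride importer Slc12a2 (88.2 and 113 CPM, 0.36) and the receptor scaffold Gphn (36.5 and 50.9 CPM, 0.48). Both were named after their values were seen.

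Pallial genes, listed as genes of cortex and hippocampus, held some of the highest ratios. Of 20, 8 were called higher, 6 lower and 6 neither (median 0.68). Neurod6, a factor of pallial projection neurons, was at 0.730 CPM in SP and 169 CPM in yMSN (7.76, 7.33 to 8.43), and Neurod2 at 0.755 and 109 CPM (7.09, 6.66 to 7.75). Tbr1, of deep-layer neurons, was at 10.8 and 151 CPM (3.80), and the glutamate transporter Slc17a7 at 1.36 and 33.3 CPM (4.57). Neurod6, Neurod2 and Tbr1 were higher still in yCA, at 396, 235 and 209 CPM. In dMSN, Neurod6 remained at 50.4 and 93.9 CPM and Slc17a7 at 936 and 1487 CPM. The 6 lower members were early patterning or neurogenic genes: Wnt8b of the cortical hem (20.4 and 0.829 CPM, -4.54), Lhx9 (33.2 and 4.49 CPM, -2.87), Lhx5 (30.3 and 4.67 CPM, -2.69), Nr2f1 (228 and 43.9 CPM, -2.38), Neurog1 (24.5 and 7.74 CPM, -1.66) and Neurog2 (50.2 and 19.5 CPM, -1.36).

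**Figure D2:**
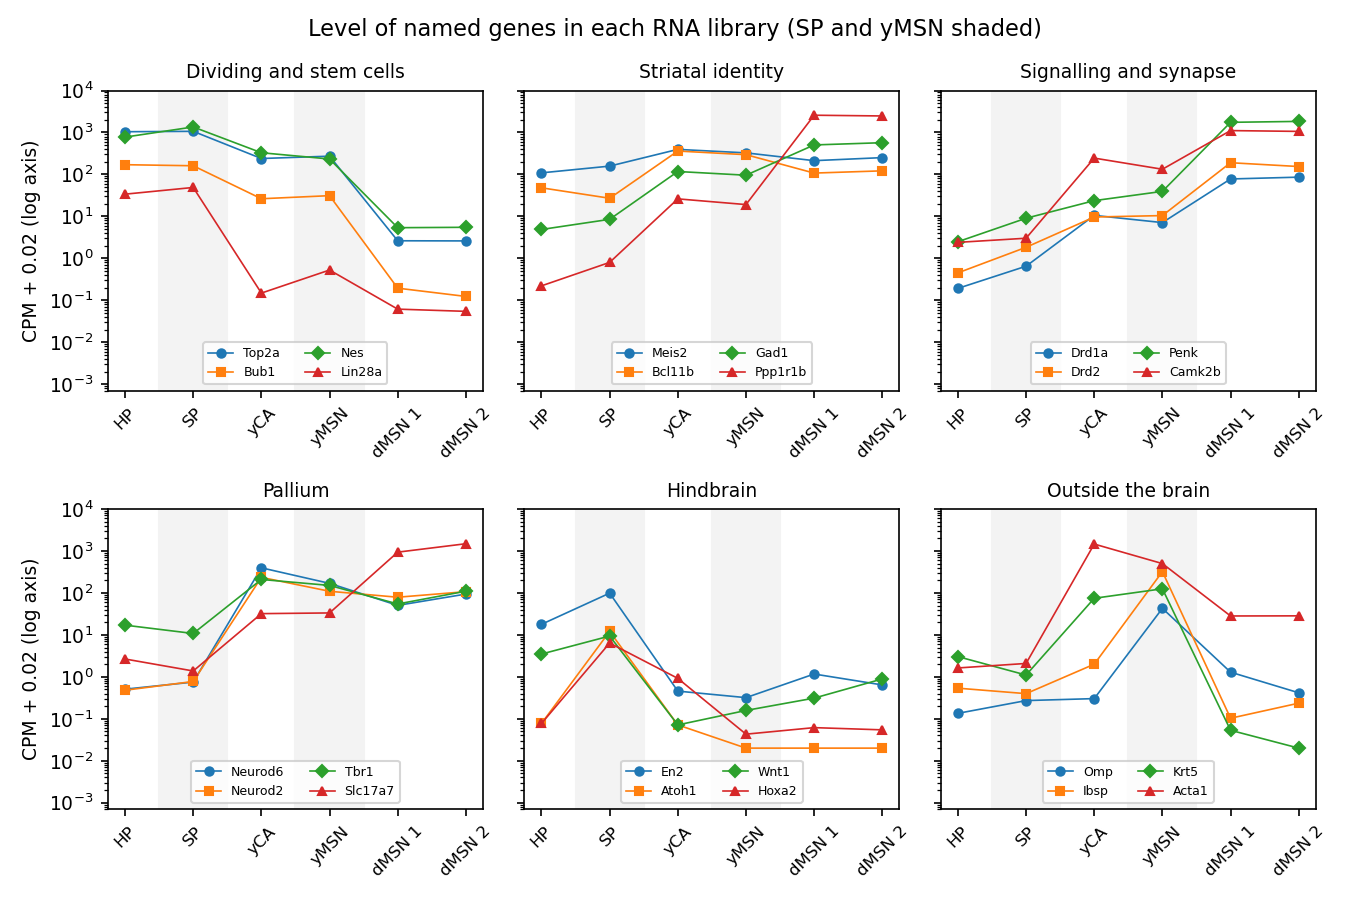
Each panel shows the CPM of 4 genes (log axis, 0.02 CPM added) in the 6 RNA libraries, with SP and yMSN shaded and lines joining the same gene. Striatal and pallial genes are both higher in yMSN and yCA than in SP and HP, hindbrain genes peak in SP, and Omp and Ibsp peak in yMSN.

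Genes of young neurons and their cytoskeleton were higher in 12 of 20 and lower in 2 (median 1.31). Mapt, the microtubule protein tau, was at 76.1 CPM in SP and 897 CPM in yMSN (3.56), L1cam, an axonal adhesion molecule, at 50.3 and 250 CPM (2.31), and Gap43, of growth cones, at 103 and 357 CPM (1.80). The pan-neuronal RNA-binding protein Elavl4 was within 2-fold (150 and 136 CPM, -0.14). The medium and light neurofilament genes were the 2 lower members: Nefm was at 354 and 40.1 CPM (-3.14) and Nefl at 139 and 33.7 CPM (-2.04). Both were higher in SP than in HP (147 and 52.6 CPM) and were at 360 and 357 CPM (Nefm) and 504 and 501 CPM (Nefl) in dMSN. Neurofilaments are most abundant in large axons, and here SP held more of their transcript than either young neuron library.

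Synaptic genes were higher almost throughout. All 18 genes of presynaptic release were called higher (median 2.22), from 1.03 to 3.75. Cplx1, a complexin that clamps vesicle fusion, was at 3.62 CPM in SP and 49.4 CPM in yMSN (3.75), Syn2, which tethers vesicles, at 3.85 and 44.2 CPM (3.5), and the calcium sensor Syt1 at 22.4 and 181 CPM (3.01). On the postsynaptic side 16 of 19 were higher and none lower (median 2.07). Camk2b, a calcium-dependent kinase, was at 3.0 and 133 CPM (5.45), the NMDA receptor subunits Grin1 at 0.881 and 24.1 CPM (4.70) and Grin2b at 0.453 and 13.8 CPM (4.79), and the AMPA receptor subunit Gria1 at 5.29 and 106 CPM (4.31). The scaffold Homer1 was at 54.5 and 39.2 CPM (-0.47). Presynaptic genes summed to 2035 CPM in yMSN, against 477 CPM in SP and 15307 and 17924 CPM in dMSN.

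Ion channel genes were higher in 14 of 19 and lower in none (median 1.66). The potassium channel Kcnt1 was at 1.61 CPM in SP and 23.8 CPM in yMSN (3.85), Kcnd2, of the A-type current, at 3.07 and 28.9 CPM (3.21), and the sodium channel Scn2a1 at 5.26 and 45.9 CPM (3.11). Scn2b, a sodium channel subunit of mature axons, was at 10.7 and 9.74 CPM (-0.13) against 227 and 219 CPM in dMSN. Of the clustered protocadherins, adhesion proteins that give neurons individual identities, 9 of 10 with 5 CPM were higher (median 2.68), 8 of them with 5 CPM in yMSN only.

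Interneuron genes were higher in 4 of 5 with 5 CPM, 3 of them with 5 CPM in yMSN only. Of the 2 with 5 CPM in SP, 1 was higher. Npy was at 0.176 CPM in SP (7 counts) and 17.4 CPM in yMSN (6.28, 5.58 to 7.95), the calcium buffer Calb2 at 3.55 and 78.7 CPM (4.45), somatostatin (Sst) at 5.26 and 31.9 CPM (2.59) and the nitric oxide synthase Nos1 at 4.99 and 24.5 CPM (2.29). Chat, of cholinergic cells, and Pvalb stayed under 0.5 CPM in both libraries. These peptides and enzymes mark interneurons and not medium spiny neurons.

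Glial genes were mostly higher. Of 9 astrocyte genes with 5 CPM, 7 were higher and none lower (median 3.38): Aldoc was at 1.86 CPM in SP and 80.7 CPM in yMSN (5.40) and the water channel Aqp4 at 1.06 and 27.9 CPM (4.66). Of the 7, 5 reached 5 CPM in yMSN only, and of the 4 astrocyte genes with 5 CPM in SP, 2 were higher. The astrocyte filament Gfap was low in both, at 0.252 and 1.54 CPM. Oligodendrocyte lineage genes were higher in 4 of 7, among them the progenitor genes Cspg4 (4.99 and 43.3 CPM, 3.11) and Olig1 (3.62 and 28.6 CPM, 2.96). Of these 4, 3 reached 5 CPM in yMSN only, and of the 4 lineage genes with 5 CPM in SP, 1 was higher. The myelin gene Mbp did not differ by 2-fold (31.1 and 32.6 CPM, 0.07) and was at 3249 and 2673 CPM in dMSN. Microglia genes were higher in 5 of 8 with a median of 1.12, among them the complement gene C1qa (3.68 and 14.4 CPM, 1.96). Endothelial genes were nearly level, with 8 of 11 within 2-fold and a median of 0.31. Their 3 higher members were the pericyte gene Rgs5 (3.45 and 157 CPM, 5.49), Cspg4 and the tight junction gene Cldn5 (16.9 and 40.4 CPM, 1.25).

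Choroid plexus genes, of the tissue that secretes cerebrospinal fluid, were higher in 3 of 6 and lower in 2 (median 1.28). Among the higher, the thyroid hormone carrier Ttr was at 33.7 CPM in SP and 105 CPM in yMSN (1.64). The 2 lower were Slc4a5 (6.5 and 0.599 CPM, -3.35) and Otx2 (112 and 30.5 CPM, -1.88). Genes of Schwann cells and sensory ganglia were higher in 4 of 6 and lower in 1 (median 1.47). Blood transcripts differed in type. The 3 embryonic globins were among the 4 lowest ratios of all genes. Hbb-bh1 was at 423 CPM in SP and 0.483 CPM in yMSN (-9.64, -10.47 to -9.16), Hbb-y at 1032 and 3.45 CPM (-8.20) and Hba-x at 574 and 1.98 CPM (-8.15). The adult globin Hbb-b1 was at 1.71 and 432 CPM (7.94, 7.63 to 8.34), Hbb-b2 at 13.8 and 111 CPM (3.0), Hba-a2 at 14.6 and 86.3 CPM (2.56) and Hba-a1 at 31.1 and 113 CPM (1.86). These adult genes are near-identical pairs, so the split of reads within a pair is uncertain. Of the other red cell genes, Hemgn (12.2 and 0.184 CPM, -5.72) and Slc4a1 (51.8 and 3.38 CPM, -3.92) were lower in yMSN, and Alas2, an enzyme of heme synthesis, lay within 2-fold (22.9 and 29.0 CPM, 0.34). Embryonic globins are made by the first red cells of the yolk sac and adult globins by those of the fetal liver and bone marrow.

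Genes higher in yMSN were then split by their level in mature dMSN tissue. Of the 2687, 2023 (75.3%) had at least 5 CPM in dMSN, 381 had 1 to 5 CPM and 283 (10.5%) had under 1 CPM. These shares were not computed over all genes with 5 CPM, so they do not set the higher genes apart. The 3 sets held 15.3%, 1.42% and 1.27% of yMSN counts. Genes low in dMSN had the larger ratios, with a median of 4.46 against 1.88 for those with at least 5 CPM. Of the 1280 genes with a log2 ratio of 1 to 2, 85.5% had 5 CPM in dMSN, against 22.8% of the 79 with a ratio of 7 or over. The split by dMSN level does not separate brain from other tissue cleanly, because the largest ratios with at least 5 CPM in dMSN included the muscle genes Myl4 (0.403 and 143 CPM, 8.31), Acta1 (2.06 and 500 CPM, 7.89) and Myh3 (2.92 and 639 CPM, 7.75) beside Neurod6, Ptgds (3 counts or 0.0755 CPM against 29.1 CPM, 7.88, 7.04 to 10.87), a prostaglandin synthase of meninges and glia, and the cilia gene Ccdc153. Of the 283 genes under 1 CPM in dMSN, 120 had at least 5 CPM in yCA and 163 did not. The first set was led by the connective tissue gene Dpt, keratins and muscle genes, and the second by olfactory, airway and bone genes.

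**Figure D3:**
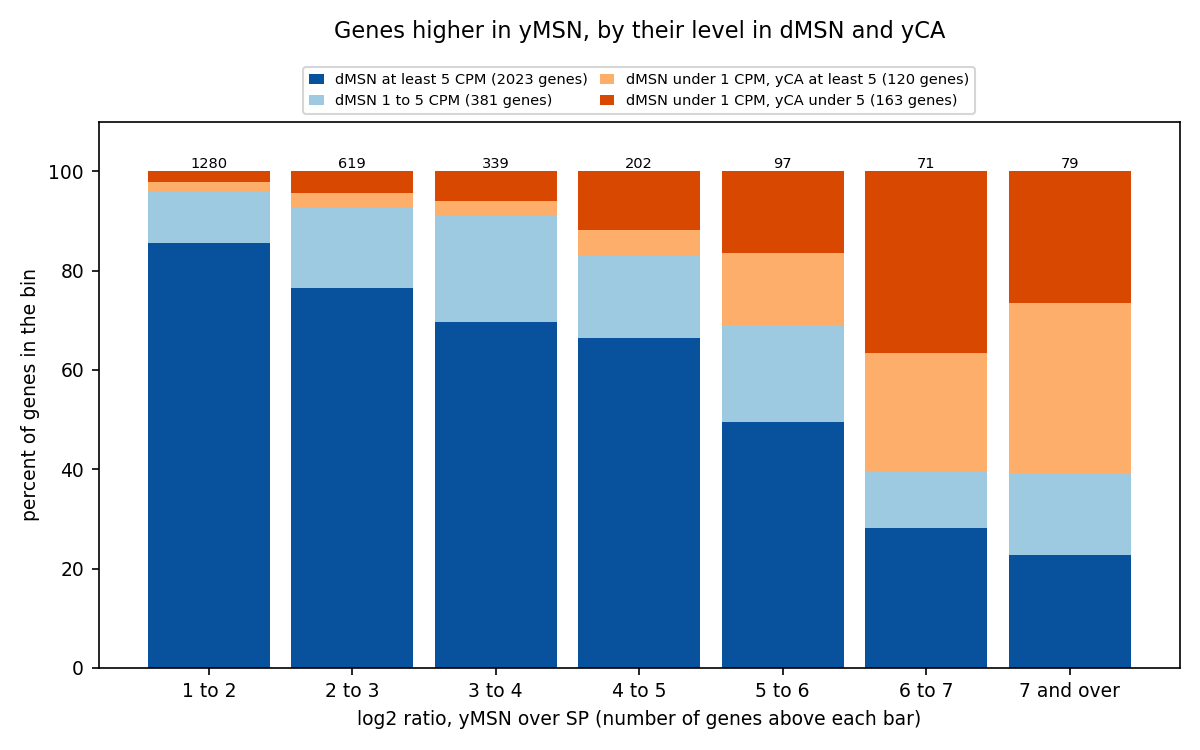
Bars split the 2687 genes higher in yMSN by log2 ratio (horizontal, number of genes above each bar) into their levels in dMSN and yCA, as percent of the genes in the bin. Genes with 5 CPM in dMSN make up 85.5% of the first bar and 22.8% of the last.

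Olfactory transcripts were higher in yMSN. Olfactory neuron genes were higher in 10 of 13 with 5 CPM and lower in none (median 5.61), and 8 of the 10 reached 5 CPM in yMSN only. The list was not particular to yMSN, with a sum of 491 CPM there and 571 and 567 CPM in dMSN. Of the 10, 4 had at least 5 CPM in dMSN and 5 had under 1 CPM. Gng13 was at 7.02 CPM in yMSN and 45.3 and 40.1 CPM in dMSN, and Ano2 at 8.47 against 28.2 and 24.6 CPM. Omp, the olfactory marker protein, was at 0.252 CPM in SP (10 counts) and 42.9 CPM in yMSN (7.16, 6.53 to 8.47), with 0.283 CPM in yCA and 1.27 and 0.397 CPM in dMSN. Rtp1, a chaperone of odorant receptors, was at 0.0252 CPM (1 count) and 37.6 CPM (9.01, 8.07 to 15.85). Cnga2, the cyclic nucleotide channel of olfactory cilia, was at 0.0503 CPM (2 counts) and 13.7 CPM (7.13, 6.23 to 11.14). The odorant receptors, of which each olfactory neuron makes 1, were detected as a family. Of 1249 Olfr symbols, 946 had at least 1 count in yMSN, against 44 in SP, 39 in HP, 49 in yCA and 45 and 48 in dMSN. With at least 10 counts there were 122 in yMSN and 2 in SP. The family summed to 13.5 CPM in SP and 128 CPM in yMSN, and only 1 member passed 5 CPM, so the call rule sees none of it. Reads of near-identical receptors may be split among them.

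Of 14 genes of olfactory and airway mucosa, 9 reached 5 CPM, all of them in yMSN only, so all 9 had to be higher there (median 8.40), and 5 stayed below in both libraries. Bpifa1, a secreted airway defence protein, was the highest ratio of all genes: it was at 0.252 CPM in SP (10 counts) and 319 CPM in yMSN (10.06, 9.43 to 11.37). Ugt2a1, an odorant-clearing enzyme, was at 0.151 CPM (6 counts) and 190 CPM (9.90, 9.17 to 11.74), and Cyp2g1, an olfactory cytochrome, at 0.0503 CPM (2 counts) and 49.4 CPM (8.97, 8.08 to 12.98). Ugt2a1, Bpifa1 and Cyp2g1 were at most 0.463 CPM in every other library. Of the 14 genes, 11 had at least 1 CPM in yMSN and 3 in yCA, among them Cyp2f2 (38.5 and 15.2 CPM). Obp1a and Scgb1a1, named after their values were seen, had 0 counts in SP and yMSN. Motile cilia genes, used by airway epithelium and by the ependyma of brain ventricles, were higher in 11 of 12 (median 2.81), 9 of them with 5 CPM in yMSN only. Foxj1, their master regulator, was at 18.1 and 61.8 CPM (1.77), and Ccdc153 had 0 counts in SP and 16.7 CPM in yMSN, at least 221-fold higher. Which tissue the cilia genes came from was not tested.

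Bone and tooth genes were higher in 13 of 14 with 5 CPM (median 4.53), of which 10 reached 5 CPM in yMSN only. The list of 20 summed to 311 CPM in SP and 7547 CPM in yMSN, most of it Col1a1, and without that gene to 54.1 and 822 CPM. Ibsp, bone sialoprotein, was at 0.378 CPM in SP (15 counts) and 322 CPM in yMSN (9.56, 9.01 to 10.57), Spp1, osteopontin, at 1.31 and 122 CPM (6.49), and Sp7, the osteoblast transcription factor, at 0.881 and 38.3 CPM (5.37). Ibsp was at 1.98 CPM in yCA, and Sp7 at 0.591 CPM. Col1a1, the main bone and dermis collagen, was at 257 CPM in SP, 6725 CPM in yMSN, 204 CPM in HP, 506 CPM in yCA and 10.7 and 11.4 CPM in dMSN (4.71), and Col1a2 at 427 and 4596 CPM (3.43). The 44 collagen genes summed to 3988 CPM in SP and 18764 CPM in yMSN, and 25 of 37 with 5 CPM were higher. Cartilage genes were higher in 8 of 12 and lower in 2 (median 2.24), among them Acan, the aggrecan core protein (1.33 and 41.0 CPM, 4.89), and Matn1, with 0 counts in SP and 9.88 CPM in yMSN, at least 131-fold higher. Of the 8 higher cartilage genes, 5 reached 5 CPM in yMSN only. Col2a1, the main cartilage collagen, was already at 451 CPM in SP and at 320 CPM in yMSN (-0.49). SP and HP (546 CPM) thus held more Col2a1 transcript than yMSN. Genes of meninges and fibroblasts, a list that also holds Col1a1, were higher in 6 of 10 and lower in 1 (median 1.23), with Dcn, the proteoglycan decorin, at 6.72 and 201 CPM (4.89) and Col3a1, a collagen of loose connective tissue, at 792 and 1838 CPM (1.21). The transcription factors of the meninges and fibroblast list did not follow its collagens. Foxd1 was its lower member (35.3 and 9.07 CPM, -1.95). Foxc1 (41.2 and 25.4 CPM, -0.70) and Twist1 (43.5 and 27.4 CPM, -0.66) lay within 2-fold. The enamel gene Amelx, named after its value was seen, had 0 counts in SP and 0.230 CPM in yMSN.

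Skin and oral epithelium genes were higher in 13 of 14 (median 5.89), 11 of them with 5 CPM in yMSN only, and 6 of the 20 stayed below in both libraries. Krt5 of basal epidermis was at 1.08 CPM in SP and 125 CPM in yMSN (6.79, 6.42 to 7.32), Krt15 at 0.957 and 122 CPM (6.92), and Krt13 of oral mucosa at 0.101 CPM (4 counts) and 66.2 CPM (8.80). Krt4 had 0 counts in SP and 23.8 CPM in yMSN, at least 315-fold higher. These genes were also high in yCA, with Krt5 at 74.5 CPM, Krt15 at 79.8 CPM, Krt13 at 56.8 CPM and Krt4 at 37.3 CPM. The barrier proteins Ivl and Flg, named after their values were seen, had at most 3 counts in either library. Of 15 keratin genes with 5 CPM, 14 were higher, 11 of them with 5 CPM in yMSN only.

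Skeletal muscle genes were higher in 20 of 21 (median 7.13), 19 of them with 5 CPM in yMSN only, and 4 of the 25 stayed below in both libraries. Acta1, skeletal actin, is given above. Myl1, a fast myosin light chain, was at 0.705 CPM in SP and 195 CPM in yMSN (8.02), Ckm, muscle creatine kinase, at 0.277 and 103 CPM (8.31), and the troponin Tnni2 at 0.378 and 82.5 CPM (7.60). All 4 were higher in yCA than in yMSN, at 1460 CPM for Acta1, 541 CPM for Myl1, 391 CPM for Ckm and 244 CPM for Tnni2. Pax7, a factor of muscle stem cells and of the dorsal midbrain, was the 1 lower member (48.7 and 5.64 CPM, -3.10). Muscle and skin transcripts were thus common to both young libraries, while Omp, Ugt2a1, Ibsp and Sp7 were high in yMSN and not in yCA. This did not hold for all bone and mucosa genes. In yMSN and yCA, Mmp9 was at 28.0 and 15.2 CPM, Ctsk at 51.4 and 11.5 CPM and Cyp2f2 at 38.5 and 15.2 CPM. Of the 20 bone and tooth genes, 16 had at least 1 CPM in yMSN and 9 in yCA. The 7 lists from outside the brain (122 genes) held 0.158% of SP counts and 1.57% of yMSN counts, and without Col1a1 0.129% and 0.782%. They summed to 13380 CPM in yMSN and to 4080 and 3763 CPM in dMSN, so these genes were not all absent from mature striatal tissue. Most of the dMSN sums was the list of Schwann cells and sensory ganglia, at 2992 and 2730 CPM (177 CPM in yMSN). Olfactory neuron genes summed to 571 and 567 CPM in dMSN. The mucosa, bone, cartilage, skin and muscle lists each summed to between 7.38 and 158 CPM in the dMSN libraries.

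**Figure D4:**
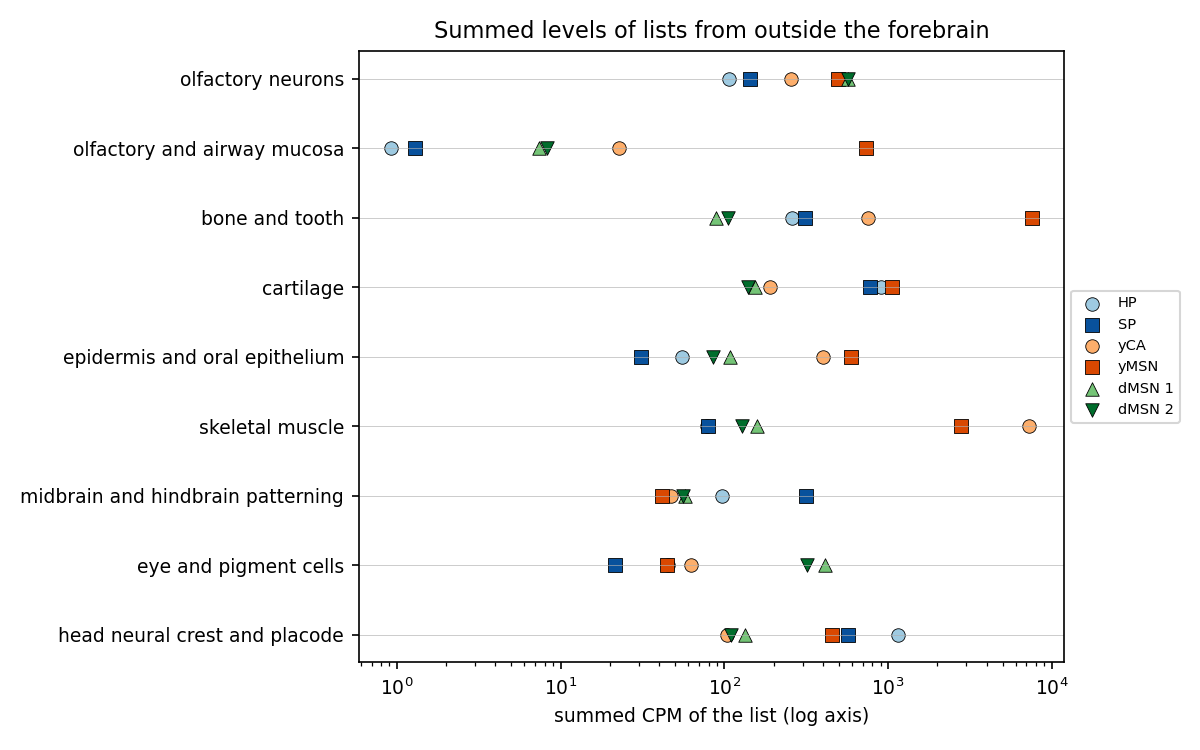
Summed CPM (log axis) of 9 lists from outside the forebrain in each RNA library, 1 symbol per library. Olfactory and airway mucosa (730 CPM) and bone and tooth (7547 CPM, and 822 CPM without Col1a1) are highest in yMSN, muscle is high in yMSN and yCA, and midbrain and hindbrain genes are highest in SP (317 CPM).

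The lower genes were then split by their level in the other precursor. Of 1231, 1147 (93.2%) had at least 0.5 of their SP level in HP, 62 had 0.25 to 0.5 of it and 22 (1.79%) had under 0.25. These shares were not computed over all genes with 5 CPM, so they do not set the lower genes apart. The set with at least 0.5 held 16.3% of SP counts and its median log2 ratio was -1.36. Beside the embryonic regulators and globins it included Wnt3a (8.48 and 0.230 CPM, -4.94), a signal of the dorsal midline, and Greb1 (118 and 3.82 CPM, -4.92). The 22 genes that were low in HP had a median of -5.67 and held 0.0591% of SP counts. They are few and hold little RNA, but they include 9 of the 15 lowest ratios of all genes.

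Those 22 included regional factors of midbrain, hindbrain and spinal cord. Of the midbrain and hindbrain list, 13 of 14 genes with 5 CPM were lower in yMSN (median -5.48), all 13 with 5 CPM in SP only, and 7 of these 13 were among the 22. En2, of the midbrain and hindbrain border, was at 98.8 CPM in SP, 17.8 CPM in HP and 0.299 CPM in yMSN (-8.15, -9.28 to -7.59). Atoh1, of the rhombic lip that makes cerebellar granule cells, was at 12.1 CPM in SP (480 counts), 0.0574 CPM in HP (2 counts) and 0 counts in yMSN, at least 175-fold lower. Hoxa2, the most anterior Hox gene of the hindbrain, was at 6.37 CPM (253 counts) in SP and 0.0230 CPM (1 count) in yMSN (-6.50, -13.42 to -5.62), with 0.0574 CPM in HP. Outside the list, Msx3 of the dorsal neural tube was at 38.5, 0.546 and 0.299 CPM in SP, HP and yMSN (-6.79). Dbx1, of interneuron progenitors, was at 111, 25.4 and 1.04 CPM (-6.68). Hes3, a progenitor gene of the midbrain and hindbrain border, had 283 counts in SP and 0 in yMSN, at least 103-fold lower. Other lower members of the list shared more with HP, such as Nkx6-1 (31.8 CPM in SP and 11.4 in HP) and Wnt1 (9.37 and 3.48 CPM). Of the 39 Hox genes, Hoxa2 alone passed 5 CPM. The list sum was 317 CPM in SP, 96.2 CPM in HP and 41.3 CPM in yMSN.

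Head mesenchyme and placode genes were present in both libraries with no common direction. Of 15 with 5 CPM, 2 were higher, 4 lower and 9 within 2-fold (median -0.28). Msx1, of cranial mesenchyme, was at 87.1 CPM in SP and 12.7 CPM in yMSN (-2.77), Prrx1 at 63.6 and 101 CPM (0.67) and Dlx3 at 3.22 and 13.2 CPM (2.02). The list sum was 566 CPM in SP and 454 CPM in yMSN, and HP had 1142 CPM, so the sum was not highest in the later stage. Eye and pigment genes had 2 members with 5 CPM, Cryab (0.931 and 33.7 CPM, 5.11) and Six6 (6.09 and 2.99 CPM, -1.01).

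Housekeeping classes were level. All 82 ribosomal protein genes with 5 CPM lay within 2-fold (median -0.06), and so did all 17 mitochondrially encoded genes (median 0.41).

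**Figure D5:**
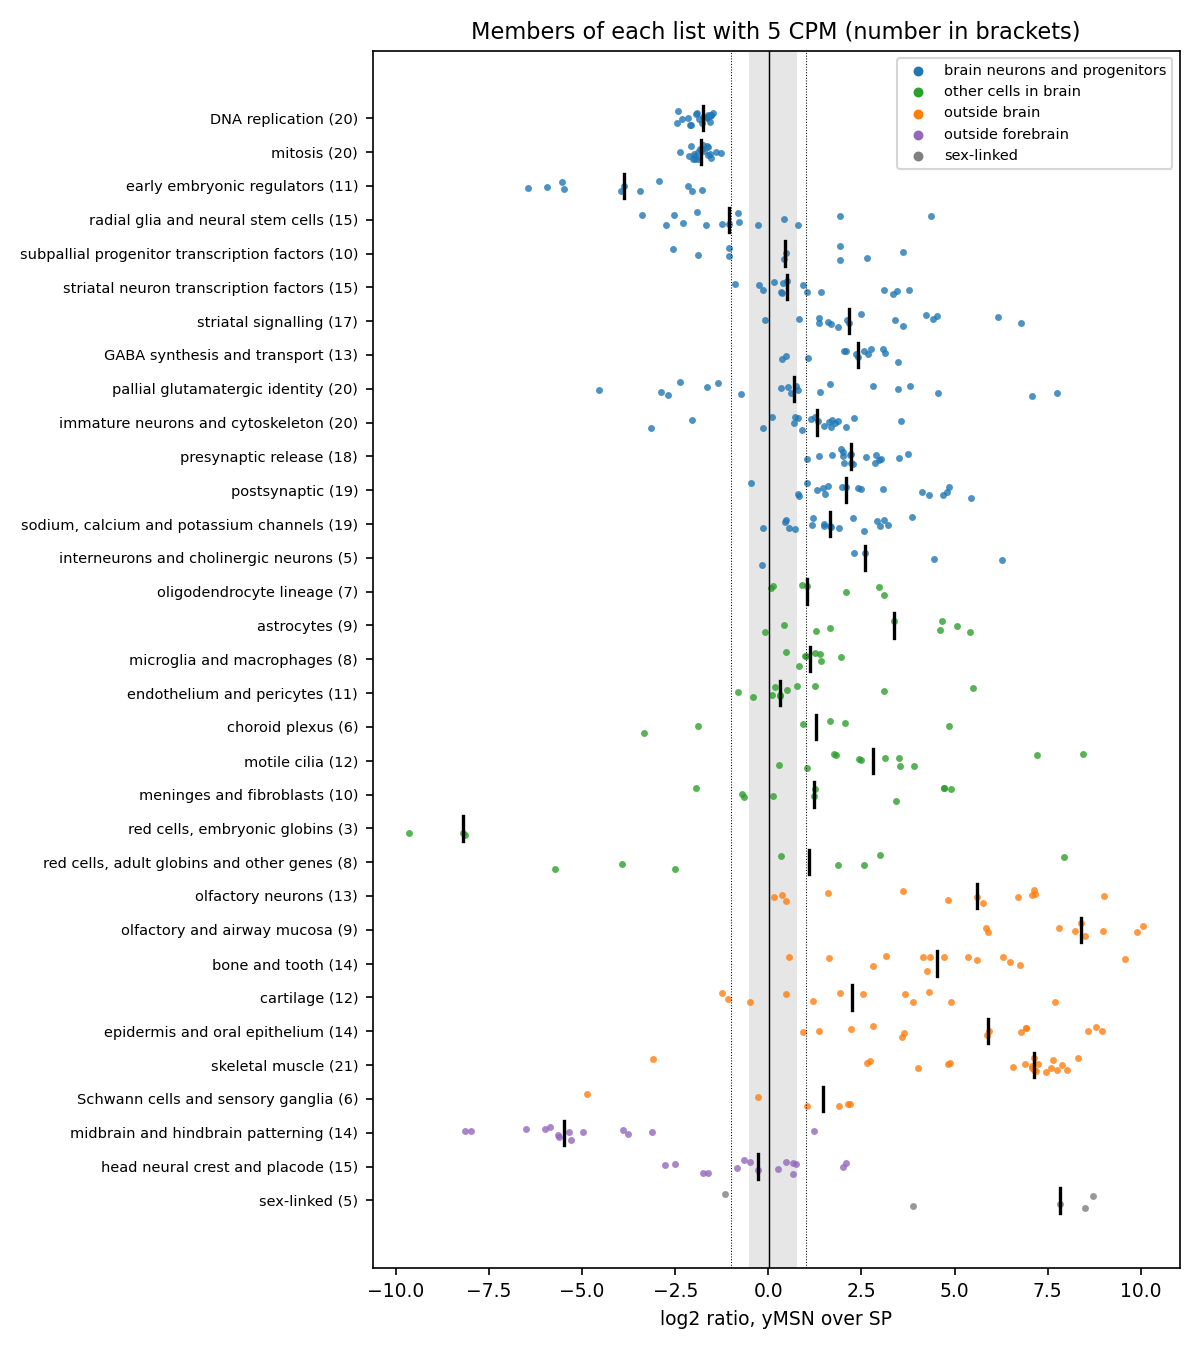
Log2 ratios of yMSN over SP for the members with 5 CPM of each list with at least 3 such members (number in brackets), with the list median as a black bar, the middle 50% of all genes in grey and 2-fold as dotted lines. The medians of division, embryonic and hindbrain lists lie left of -1, those of synaptic lists right of 1, and mucosa and muscle lists have medians of 8.40 and 7.13.

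Values of the hippocampal pair, which shares no library with the striatal one, stood beside these. Among the 12931 genes, 21.1% were at least 2-fold higher in yCA than in HP and 13.9% lower. Of the 2687 genes higher in yMSN, 1999 (74.4%) were also at least 2-fold higher in yCA over HP, and 103 (3.83%) were lower. Of the 1231 lower genes, 933 (75.8%) were lower there too and 7 (0.569%) were higher. List medians were larger in the hippocampal pair for presynaptic genes (3.26 against 2.22), striatal signalling genes (3.58 against 2.16), ion channels (3.07 against 1.66) and young neuron genes (2.77 against 1.31). Bone genes (1.10 against 4.53) and mucosa genes (1.53 against 8.40) showed the reverse. The members were kept by their levels in SP or yMSN, not in HP or yCA. With 1 library per stage these differences between the pairs were not tested.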

How the data were processed

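PolyA RNA of 6 microdissected mouse brain samples was sequenced, and the authors deposited a table of raw counts for each library, with gene symbols in rows. The submitters' processing notes list mm9 and NCBIM37 as builds, and as tools edgeR, HTSeq, Bowtie 1.0.0 and TopHat2 2.0.2, with no roles. No strand setting is stated, so reads of overlapping and antisense genes cannot be told apart. HTSeq's 5 summary lines were left out of library sizes (5.34% to 9.81% of reads in no gene, 1.38% to 2.01% ambiguous and 17.3% to 27.3% not unique).

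Symbols kept by filterByExpr (19192) gave TMM factors over the 6 libraries (edgeR 4.0.16 in R 4.3.3), 1.11 in SP and 1.18 in yMSN, and CPM use these. Log2 ratios carry a prior count of 2, intervals are exact binomial (Clopper-Pearson, 95%), and folds against 0 counts use a floor of 3 counts per library. Counts from 1 to 3 are given with their interval. Intervals and floors cover counting error only, as PCR copies are not removed. The steps were tested on simulated counts in which as many genes were raised as lowered. The real pair had more higher than lower calls, so the simulation did not check the scaling under such an uneven split. Some genes are not reported here. Numbers were computed in Python 3.11.15 with NumPy 2.4.6, SciPy 1.17.1 and pandas 2.3.3.

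The comparison and the 34 gene lists (505 genes, 501 found) were chosen with earlier results of these data known, and a gene can be in several lists. Lists are described by counts and medians, with no test. Named genes are the 15 largest ratios in each direction, the 15 largest in each class by dMSN, yCA or HP level, up to 8 members per list with the largest ratios and those against the list's median, all members of lists of at most 12 genes, and the markers. Predicted and Olfr symbols were skipped, and list sums use all members. The text says where a gene outside this rule is named. Promoters are RefSeq's, in GRCm38.p6.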

Additional observations from a re-analysis of the deposited data

Results flagged for a closer look

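Some results had opposite directions in the striatal pair (yMSN over SP) and the hippocampal pair (yCA over HP). With 1 library per group these differences were not tested. The sex-linked genes had a median log2 ratio of 7.84 in the striatal pair and -6.36 in the hippocampal one. Ddx3y had 8.72 against -7.18 and Kdm5d 7.84 against -7.04, both with 0 counts in SP and in yCA. Dlx3 of the placodes had 2.02 against -2.18, with 3.22 CPM in SP, 13.2 CPM in yMSN, 5.66 CPM in HP and 1.21 CPM in yCA. Sox10, of neural crest and oligodendrocytes, had 2.07 against -1.68. Tmem119, a gene of microglia and bone, had 1.39 against -1.93, and its level was 10.3 CPM in yCA against 55.3 CPM in yMSN. The connective tissue gene Lum had 1.25 against -1.09.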

How the results depend on the processing

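Each stage is 1 library, so counting error is the only error known, and depth limits genes near 0 counts. Other scalings were TMM over yMSN and SP alone, RLE, upper quartile, library totals, TMM without the genes from outside the forebrain and of red cells, and, added after seeing the data, TMM over all symbols. Prior counts of 0.5 and 8, filters at 1 and 20 CPM or none, and calls on the whole interval were tried too. The sums without Col1a1 were also added after seeing the data. Of 277 named genes with a call, at most 5 lost it under any scaling or prior count, Meis2 among them under RLE, TMM of the pair and TMM over all symbols. Of 43 named genes within 2-fold, at most 3 gained a call. Foxp4 was called lower under RLE, TMM of the pair and TMM over all symbols. The count of higher genes was 1407 with the 20 CPM filter against 2687, and of these 1226 had 5 CPM in dMSN against 2023. Genes under 1 CPM in dMSN numbered 786 with the 1 CPM filter and 84 with the 20 CPM filter, against 283. Lower genes with HP under 0.25 of SP numbered 34 with TMM of the pair, 50 with the 1 CPM filter and 6 with the 20 CPM filter, against 22. The median log2 ratio of all genes was -0.17 with RLE, -0.12 with the 20 CPM filter and 0.23 with no filter, against 0.01. The head neural crest and placode list changed sign from -0.28 to 0.08 with library totals and to 0.26 with the 1 CPM filter, and the ribosomal protein list from -0.06 to 0.02 with library totals. The eye and pigment list, with 2 members, turned from 2.05 to -1.12 with TMM of the pair and to -0.58 with the 1 CPM filter. The adult red cell list turned from 1.10 to -2.19 with the 1 CPM filter. These filters change which genes are counted. Leaving out 1 dMSN library gave 2009 to 2022 genes with 5 CPM and 275 to 295 under 1 CPM in dMSN. No paired analysis was possible because each stage has 1 library and the titles of SP, yMSN, HP and yCA carry no replicate number.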
